A study of Homo sapiens with 4 samples.

Results

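Centrosomes and primary cilia are built from related parts: the mother centriole of the centrosome becomes the basal body from which a cilium grows. CEP proteins make up centrioles, their appendages and the surrounding material, and gamma-tubulin complex proteins (TUBGCP) nucleate microtubules there. Intraflagellar transport (IFT) trains and the BBSome (BBS) carry cargo along the cilium, and nephrocystins (NPHP) and jouberin (AHI1) belong to the transition zone at its base. Many of these genes are mutated in inherited cilium disorders. The genes described here were those of a table of cassette exons whose symbol was CEP, IFT, BBS, TTC or CCDC followed by a digit, or began with TUBGCP or NPHP, or was PCM1, OFD1 or AHI1. A cassette exon is one that is either joined to both neighbouring exons or skipped, and an event is such an exon with 1 pair of neighbours. The rule found 541 of the 31408 events, which were 484 of 27483 unique exons in 147 of 9172 genes. CCDC and TTC name a protein fold (a coiled coil and tetratricopeptide repeats), not a place in the cell. They supplied 92 of the 147 genes, and 68 of these are on neither of the lists used here for a centrosome or cilium role.

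The study used RNA-seq of 4 clones of HEK293T, a human embryonic kidney cell line, to find cassette exons that depend on RBFOX2, an RNA-binding protein (also called RBM9) that recognises GCATG and controls nearby exons. The labels describe 2 wild-type clones and 2 RBFOX2 knockout clones, all grown from single sorted cells after transfection with PX459, a Cas9 plasmid, and pgRGFP, which carried guides on both sides of RBFOX2. Each library was 1 clone, so differences between clones and between genotypes rest on 2 clones a genotype. The authors' deposited table compares a first with a second set of libraries and does not say which set is the knockout, so directions are given between sets only.

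Each event of the authors' deposited table comes with an inclusion difference, its p-value and its false discovery rate (FDR). Inclusion runs from 0 (always skipped) to 1 (always kept) and is measured from reads across exon junctions, scaled for length. A difference above 0 means a higher mean inclusion in the first set. Values per library were not used, because their columns carry a set number only and could not be matched to a clone or genotype. Depth and the spread between libraries were not analysed here, and no SD stands behind a difference. An exon passed if 1 of its events had an FDR under 0.05 and an absolute difference of at least 0.1.

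The exons that carry the findings are printed first, 5′ to 3′ on the strand of the gene, as they stand in GENCODE 29 transcripts with the same exon and intron lengths. The positions are those of the authors' deposited table in hg19, the build named in the submitters' processing notes. All are fully coding. They are 2 of the exons with the lowest p-values, those of CEP63 and AHI1, a short exon of a transport gene, the shortest passing exon, and 1 exon each of the BBSome and of TTC3. Capitals mark GCATG, searched on the strand of the gene only.
CEP63 exon of 138 nt, chr3:134266177-134266314, plus strand: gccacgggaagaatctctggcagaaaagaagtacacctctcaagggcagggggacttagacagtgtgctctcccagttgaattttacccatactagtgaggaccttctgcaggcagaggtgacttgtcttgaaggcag
AHI1 exon of 163 nt, chr6:135644300-135644462, minus strand: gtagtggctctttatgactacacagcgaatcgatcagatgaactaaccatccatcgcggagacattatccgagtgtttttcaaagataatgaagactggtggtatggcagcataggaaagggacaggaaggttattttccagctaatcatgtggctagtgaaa
IFT88 exon of 57 nt, chr13:21163950-21164006, plus strand: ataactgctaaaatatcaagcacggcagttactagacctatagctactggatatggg
TTC3 exon of 54 nt, chr21:38529463-38529516, plus strand: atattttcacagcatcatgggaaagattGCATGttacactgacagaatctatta
TTC8 exon of 90 nt, chr14:89307769-89307858, plus strand: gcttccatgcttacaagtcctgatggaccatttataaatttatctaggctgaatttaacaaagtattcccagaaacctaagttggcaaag
CEP78 exon of 48 nt, chr9:80880775-80880822, plus strand: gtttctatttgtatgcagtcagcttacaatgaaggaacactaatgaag

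Of the 484 exons, 35 passed, or 7.23%, beside 5.73% of all exons of the table. The Wilson 95% interval of the members' share, 5.25% to 9.89%, covers counting error only and contains the share over the table, so the count is not a result about these genes. Of the 484 exons, 20 passed with the first set higher, or 4.13%, beside 3.08% of all exons of the table. The other 15 passed with the second set higher, or 3.1% of the 484, beside 2.65%. The passing exons lay in 28 of the 147 genes, or 19%, beside 13.7% of all genes of the table. The FDR limit alone was met by 39 exons, or 8.06%, beside 6.78%. An unadjusted p-value under 0.05 was listed for 74 of the 484 exons, or 15.3%, beside 13.1% of all exons. Over all 484 exons the median difference was 0.019, and over the whole table it was 0.004.

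The differences of the passing exons reached further in the direction of the first set. Among the 20 exons higher in the first set, the differences ran from 0.158 to 0.875 with a median of 0.316, beside 0.262 for the passing exons of the whole table in that direction. Among the 15 exons higher in the second set, they ran from -0.125 to -0.334 with a median of -0.218, beside -0.285 over the table. Differences of 0.5 or more belonged to 5 passing exons, in AHI1 (2 exons), CCDC134, CCDC24 and CCDC126, and all 5 were higher in the first set. Passing exons of that size over the whole table numbered 144 (0.524%) with the first set higher and 147 (0.535%) with the second set higher. This asymmetry between directions was not tested.

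**Figure D1:**
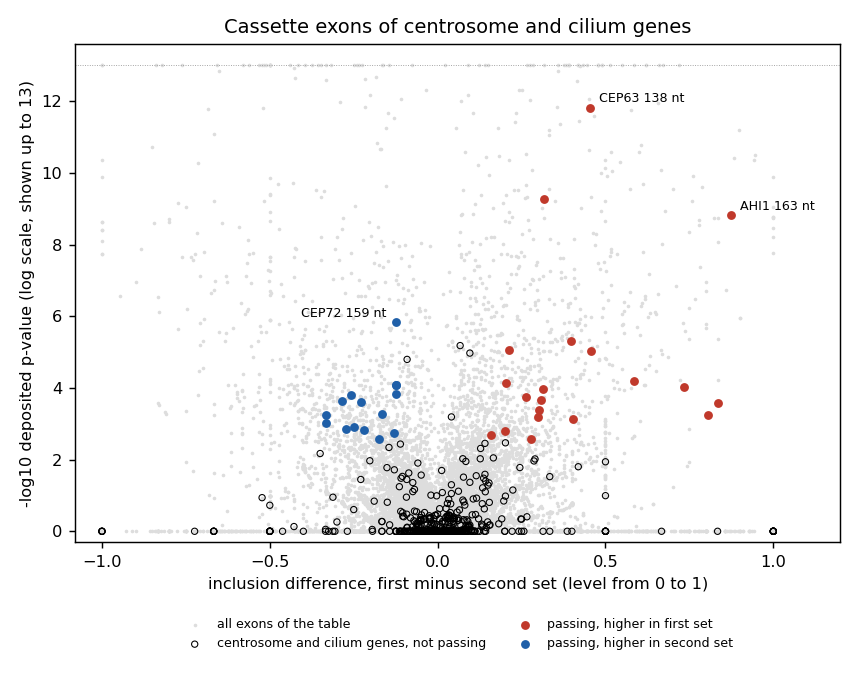
Inclusion difference (x axis, first minus second set) against the deposited p-value (y axis, -log10, values beyond 13 drawn at 13) for the 484 exons of centrosome and cilium genes over all 27483 exons of the table. The 20 red exons reach 0.875, and the 15 blue exons reach -0.334; open circles did not pass, and many of these lie at a p-value of 1 whatever their difference.

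Of the 111 exons in 28 CEP genes, 7 passed, or 6.31%, beside 5.73% of all exons of the table, 4 with the first set higher and 3 with the second set higher. CEP63, which acts in centriole duplication, had the lowest p-value of all members: its 138-nt exon, exon 8 of 14, was higher in the first set by 0.454 in the authors' deposited table (p = 1.5e-12, FDR 5.11e-10). GENCODE 29 holds transcripts with and without this exon, whose length is divisible by 3 and which adds 46 residues. The other 3 CEP63 exons of the authors' deposited table lay between -0.4 and 0.143 and did not pass.

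CEP164, a distal appendage protein needed to start a cilium, had 2 passing exons near its 5′ end, next to each other. The authors' deposited table gave 0.398 (FDR 0.000255) for the 76-nt exon (chr11:117206321-117206396), which lies in the 5′ UTR. For the following 103-nt exon (chr11:117209282-117209384), which is partly coding, it gave 0.313 (FDR 0.00327). Both were higher in the first set. Because 1 of these exons is a neighbour in the event of the other, the 2 values share junction reads. The 6 other CEP164 exons ranged from -0.334 to 0.105 in the authors' deposited table, and their lowest p-value was 0.0308.

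The CEP exons higher in the second set had smaller differences. The 48-nt exon of CEP78, a centriole wall protein, is exon 15 of 16, adds 16 residues and was the shortest passing exon of all members; the authors' deposited table gave -0.284 (FDR 0.00618). GENCODE 29 has transcripts with and without it. CEP192, which recruits pericentriolar material, had -0.166 for a 127-nt coding exon (chr18:13040829-13040955; FDR 0.0127) in the authors' deposited table, a length not divisible by 3. For CEP72, a satellite protein, the listed difference was -0.125 (FDR 8.94e-05) in the authors' deposited table, for a 159-nt exon (chr5:666056-666214) that matched a noncoding transcript only. The largest cassette sets without a passing exon were those of CEP290, with 10 exons from -0.109 to 0.145, and of CEP170, CEP250 and CEP57L1, with 7 each. CEP57L1 spanned -1 to 0.834 in the authors' deposited table at a lowest p-value of 0.112, so a wide span by itself gave no call.

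Of the 22 exons in AHI1, OFD1 and PCM1, 4 passed, or 18.2%, beside 5.73% of all exons of the table. AHI1 supplied 10 of the 22 exons and 2 of the 4 that passed. Each of the 3 genes had a passing exon, beside 13.7% of all genes of the table, and they did not share a direction. These shares were not tested. The 163-nt exon of AHI1, exon 25 of 29, had the largest difference of all passing members, 0.875 in the authors' deposited table (p = 1.5e-09, FDR 2.47e-07). Such a difference requires a mean level of at least 0.875 in the first set, and of at most 0.125 in the other. A further coding AHI1 exon of 103 nt (chr6:135611561-135611663), exon 28 of 29, had 0.584 (FDR 0.00223). Neither length is divisible by 3, so skipping either alone shifts the reading frame. The 2 exons are not neighbours in each other's events. The remaining 8 AHI1 exons did not pass and ran from -0.724 to 0.5 in the authors' deposited table, 5 of them at a p-value of 1.

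OFD1, a protein of centriolar satellites and the distal centriole, was higher in the second set for a 120-nt exon (chrX:13769368-13769487), exon 10 of 23, at -0.174 (FDR 0.0458) in the authors' deposited table. The exon adds 40 residues. PCM1, the scaffold of centriolar satellites, was higher in the second set for a 68-nt 5′ UTR exon (chr8:17782222-17782289), at -0.131 (FDR 0.034) in the authors' deposited table. PCM1 also had a coding 165-nt exon at 0.202, in the opposite direction, which missed the FDR limit at 0.0541.

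**Figure D2:**
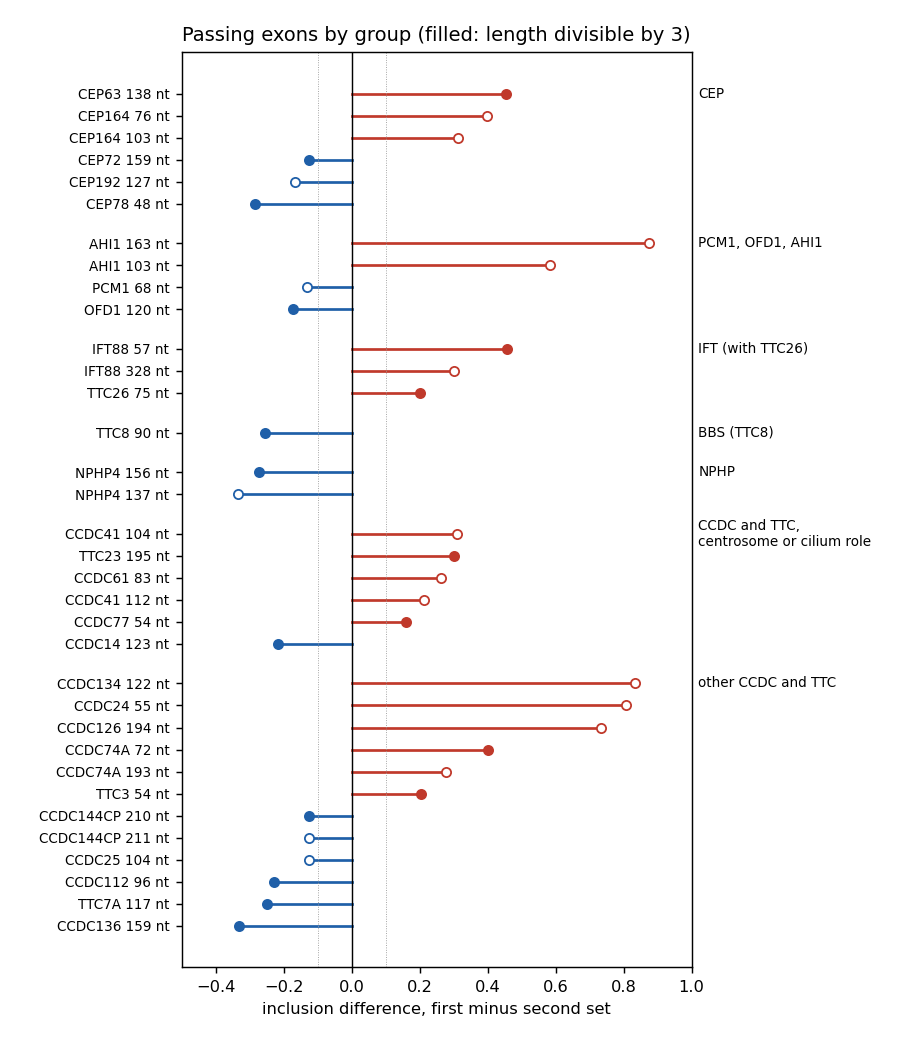
Inclusion difference (x axis, first minus second set) of 34 of the 35 passing exons, grouped by gene role, with the gene and exon length on the y axis; filled circles mark a length divisible by 3 and dotted lines the minimum difference of 0.1. CEP exons lie on both sides of 0, the 3 IFT exons lie above 0, and the TTC8 exon and both NPHP4 exons lie below 0.

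In the transport groups, the 3 passing exons among 45 IFT exons (6.67%, beside 5.73% of all exons) were higher in the first set. These exons came from IFT88, a core subunit of the IFT-B train, and from TTC26, the IFT-B subunit also called IFT56. The 57-nt exon of IFT88, exon 4 of 26, adds 19 residues and had 0.456 in the authors' deposited table (p = 9.41e-06, FDR 0.000434). A 328-nt exon in the 5′ UTR of a short IFT88 transcript (chr13:21141809-21142136) had 0.3 (FDR 0.0148). A 113-nt form with the same 3′ end as the 328-nt exon had 0.075 (deposited p-value 0.134) and did not pass. The 4 other IFT88 exons, this form among them, lay between -0.166 and 1 in the authors' deposited table, and the exon at 1 had a p-value of 1.

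TTC26 had 0.202 (FDR 0.0294) in the authors' deposited table, in a coding exon of 75 nt (chr7:138845694-138845768). With another upstream neighbour the difference for TTC26 was 0.057 (p-value 1). A pair of further IFT-B genes fell short only in size: a 72-nt exon of IFT52 had 0.096 (FDR 0.000481) and a 163-nt exon of IFT57 had 0.041 (FDR 0.0145) in the authors' deposited table. IFT80, with -0.35 at an FDR of 0.0921, and IFT122, with 0.29 at an FDR of 0.121, had larger differences and missed the FDR limit.

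The BBSome genes had 27 exons in 5 genes, and 1 passed, or 3.7%, beside 5.73% of all exons. It was the 90-nt exon of TTC8 (BBS8), exon 5 of 14, which adds 30 residues and was higher in the second set, at -0.257 (p = 0.000155, FDR 0.00459) in the authors' deposited table. GENCODE 29 holds both forms. BBS4 had 10 exons in the authors' deposited table, all with a difference above 0 (0.005 to 0.224), and the lowest FDR among them was 0.382. The 5 exons of BBS1 likewise ran from 0.062 to 0.154 with a lowest FDR of 0.426. Overlapping forms were counted as separate exons, those of 59 and 54 nt in BBS4 and of 173 and 273 nt in BBS1. The shared sign was not tested.

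NPHP4, a transition zone protein, had 2 passing exons, both higher in the second set. They are exons 6 and 7 of 30. For the 137-nt exon (chr1:6012760-6012896), the authors' deposited values were -0.334 (FDR 0.0129) and, for the 156-nt exon (chr1:6021854-6022009), -0.272 (FDR 0.0273). Each passing event pairs its exon with neighbours beyond the other exon, so both use the same skipping junction, which omits the 2 exons together. With the other exon as a neighbour, the authors' deposited table gave -0.143 at a p-value of 1 for the 137-nt exon and -0.089 at a p-value of 0.215 for the 156-nt exon. One more event of the 156-nt exon also had the 137-nt exon as a neighbour, with a different upstream one. It had 0.5 at a p-value of 1, the opposite sign, again without a call. The calls of NPHP4 thus belong to the events measured against the joint omission of both exons.

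None of the 16 exons of the 5 gamma-tubulin complex genes passed in the authors' deposited table, and none had an unadjusted p-value under 0.05, beside 5.73% and 13.1% of all exons of the table. With 16 exons, a count of 0 does not set the group apart from these shares. Their differences ran from -0.067 to 0.113, the narrowest range of the 8 groups, with a lowest p-value of 0.34. No other tool was run on these exons.

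**Figure D3:**
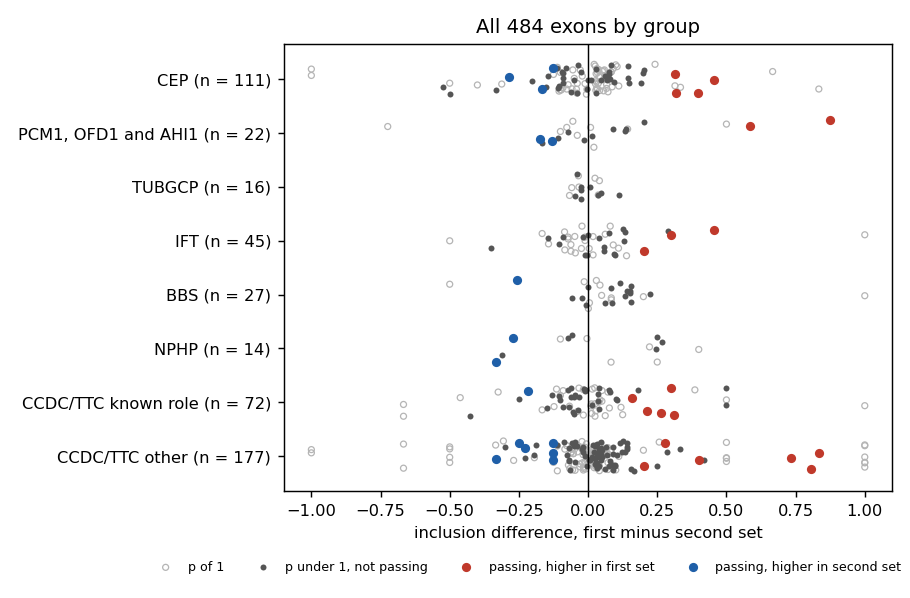
Inclusion difference (x axis, first minus second set) of all 484 exons by gene role (y axis, with a random vertical offset); grey open circles have a deposited p-value of 1, dark points a p-value under 1 without passing, and red and blue points passed. The gamma-tubulin complex exons lie between -0.067 and 0.113, and the outermost values of most groups are open circles.

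CCDC and TTC genes with a known centrosome or cilium role had 72 exons in 21 genes, of which 6 passed, or 8.33%, beside 5.73% of all exons. The first set was higher for 5 of the 72 exons, of which 2 lie in CCDC41, and the second for 1. In these directions the shares over all exons of the table were 3.08% and 2.65%, and the split was not tested. CCDC41, now named CEP83, is a distal appendage protein. In the authors' deposited table CCDC41 had 0.212 (p = 8.99e-06, FDR 0.00042) for its 112-nt exon (chr12:94806094-94806205) and 0.309 (FDR 0.00598) for its 104-nt exon (chr12:94721981-94722084). In GENCODE 29 both matched only transcripts annotated for nonsense-mediated decay, the pathway that removes messages with an early stop codon. CCDC61, a centriole protein, had 0.262 for an 83-nt coding exon (chr19:46506677-46506759; FDR 0.00521) in the authors' deposited table.

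TTC23 had 0.301 (FDR 0.00996) for a 195-nt exon of its 5′ UTR (chr15:99781570-99781764) in the authors' deposited table, and 0.061 at a p-value of 0.3 with another neighbour. CCDC77 had 0.158 (FDR 0.0361) for a partly coding 54-nt exon (chr12:518534-518587), and 0.058 at a p-value of 1 with another neighbour. The exon higher in the second set was a 123-nt coding exon of CCDC14, a satellite protein (chr3:123674690-123674812), at -0.218 (FDR 0.0294) in the authors' deposited table. An NMD-annotated 151-nt exon of CCDC66 fell short in size, at -0.091 (FDR 0.000687).

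The remaining CCDC and TTC genes, which the symbol rule includes without a listed role at the centrosome or cilium, had 177 exons in 68 genes. Of these exons 12 passed, or 6.78%, beside 5.73% of all exons, 6 in each direction. TTC3, a ubiquitin ligase encoded on chromosome 21, had 0.203 (p = 7.08e-05, FDR 0.00241) in the authors' deposited table, in the 54-nt exon printed above, which matched 1 short coding transcript. With another downstream neighbour TTC3 had 0.172 for it (p-value 0.69). It holds GCATG at base 29, and 4.16% of the 2189 matched exons of the table within 10 nt of that length hold it. The share was higher, at 15.8%, around the length of the TTC23 exon (195 nt) that also holds GCATG. The 10 other TTC3 exons lay between -0.068 and 0.134 in the authors' deposited table, and none passed.

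The largest differences in these CCDC genes were 0.834 for a 122-nt exon of CCDC134 (chr22:42205883-42206004; FDR 0.00722) that had no match in GENCODE 29, 0.806 for a 55-nt coding exon of CCDC24 (chr1:44460780-44460834; FDR 0.0129), and 0.734 for a 194-nt 5′ UTR exon of CCDC126 (chr7:23643705-23643898; FDR 0.00305), all in the authors' deposited table. CCDC74A had 0.402 (FDR 0.0158) for a 72-nt exon and 0.277 (FDR 0.0461) for a 193-nt exon that contains it. Higher in the second set were coding exons of CCDC136 (159 nt, -0.333), TTC7A (117 nt, -0.25), CCDC112 (96 nt, -0.228) and CCDC25 (104 nt, -0.125) in the authors' deposited table. CCDC144CP, annotated as a transcribed pseudogene, had -0.125 for 2 forms of 1 exon, of 210 and 211 nt, with the same p-value of 8.31e-05. Read sharing between the pseudogene and its relatives was not tested, and the 2 forms were counted as 2 exons.

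Of the 147 member genes, 7 had 2 passing exons each, beside 257 of the 9172 genes of the table with 2 or more. Within each of the 7 the directions were the same. In the whole table, 82 of the 257 genes with 2 or more passing exons (31.9%) had them in both directions. The 257 also take in genes with more than 2 passing exons, and neither count was tested against the table. The 7 are not 7 independent pairs. The exons of CCDC144CP and of CCDC74A overlap and share a skipping junction, those of NPHP4 share a skipping junction, and those of CEP164 are neighbours. AHI1, CCDC41 and IFT88 had 2 passing exons that do not overlap, are not neighbours and share no skipping junction.

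**Figure D4:**
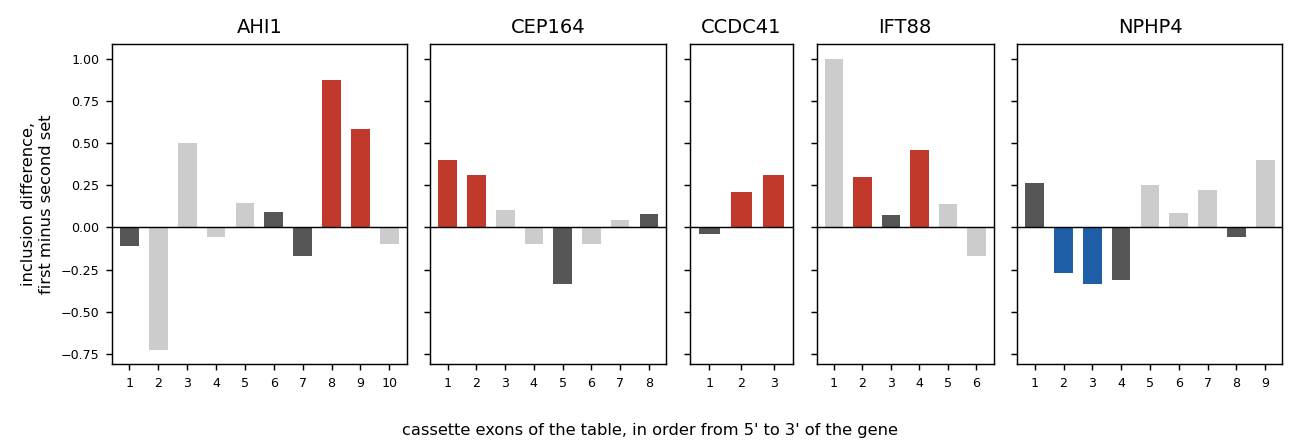
Inclusion difference (y axis, first minus second set) of every cassette exon of AHI1, CEP164, CCDC41, IFT88 and NPHP4, in order from 5′ to 3′ of the gene (x axis); red and blue bars passed, dark grey bars did not pass, and light grey bars have a deposited p-value of 1. The passing exons of AHI1 are the 8th and 9th of 10 at 0.875 and 0.584, and the grey bars of AHI1 and IFT88 reach -0.724 and 1 without a call.

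Large differences were common without a call. An absolute difference of at least 0.1 in at least 1 event was listed for 189 of the 484 exons, or 39%, beside 32.6% of all exons of the table. The authors' deposited table holds 49 member events whose absolute difference is 0.5 or more; 40 had a p-value of 1 and 5 passed. The p-value was 1 in 53.8% of member events and 51.4% of all events. Just inside the FDR limit were OFD1 at 0.0458 and the 193-nt exon of CCDC74A at 0.0461. Just outside it, with differences of at least 0.1, were PCM1 at 0.0541, TTC7B at 0.0556 (0.141), CCDC22 at 0.0575 (-0.111), CEP170 at 0.068 (-0.145) and IFT46 at 0.0715 (0.128), of 15 such exons with an FDR from 0.05 to 0.2. Below the minimum difference, 4 exons had an FDR under 0.05, those of TTC31 (0.067), IFT52, CCDC66 and IFT57.

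The structure of the passing members is set beside that of all passing exons without a test. Their median length was 117 nt, beside 111 nt for all passing exons. Lengths divisible by 3 made up 18 of 35, or 51.4% (Wilson 95% interval 35.6% to 67%), beside 46% of all passing exons and 40.1% of all member exons. Of the 33 passing members with a GENCODE 29 match, 22 were fully coding, or 66.7% (49.6% to 80.2%), beside 58.2% of all matched passing exons. Of the fully coding ones, 14 of 22 had a length divisible by 3, or 63.6%, beside 57.1% for the table. Exons of at most 51 nt numbered 1 of 35 among the passing members, the CEP78 exon, and 4.13% of all member exons, beside 7.2% of all exons of the table. GCATG stood in 4 of the 33 matched passing members (those of TTC3, TTC23 and CCDC77 among them), or 12.1% (4.82% to 27.3%), beside 10.2% of all matched passing exons and 11.6% of all matched exons. Introns, where RBFOX proteins mostly bind, were not searched, because no genome sequence of hg19 was used here.

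A list of 128 other centrosome and cilium genes, none of them matched by the symbol rule, was examined in the same way. Of these, 110 had exons in the table, 395 in all, and 35 exons in 27 genes passed, or 8.86%, beside 5.73% of all exons. The first set was higher for 22 of the 395 exons and the second for 13. In these directions the shares over all exons of the table were 3.08% and 2.65%. Of the 200 exons in genes of the centriole and pericentriolar material, 22 passed, or 11%. In other cilium genes 13 of 195 exons passed, or 6.67%. None of these shares was tested against the table, and the list was chosen with earlier results of these data known. The median difference over the 395 exons was 0, beside 0.004 over the table.

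Each listed gene was placed by its passing exon of lowest p-value, and the genes with the lowest p-values are given for each direction. Those higher in the first set began with WDR62, a spindle pole protein, at 0.154 for a 111-nt exon (FDR 2.62e-08) in the authors' deposited table. GPR161, a receptor of the cilium, had 0.701 for a 46-nt exon (FDR 5.56e-08). KIF3A, a motor subunit that moves IFT trains, had 0.677 for a 9-nt coding exon (FDR 1.95e-07) in the authors' deposited table. TUBG2, a gamma-tubulin, had a difference of 1 for an 80-nt exon (FDR 2.82e-07) in the authors' deposited table. POC1A, a centriole protein, had 0.242 (FDR 4.03e-06). Higher in the second set were LCA5 at -0.709, CC2D2A of the transition zone at -0.405, TTBK2, the kinase recruited by CEP164, at -0.385, CROCC, which forms the ciliary rootlet, at -0.533, and KIF24 at -0.334, with FDR values from 0.000302 to 0.00436 in the authors' deposited table. POC1B, a centriole protein, had passing exons of either sign in the authors' deposited table: its 304-nt exon stood at 0.423 (FDR 7.67e-05), its 172-nt exon at 0.207 (FDR 0.00111) and its 219-nt exon at -0.312 (FDR 0.00091), the last at a lower p-value than those of TTBK2, CROCC and KIF24; it was added after its values were seen.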

How the data were processed

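The labels describe 2 wild-type and 2 RBFOX2 knockout HEK293T clones, sequenced as strand-specific total RNA depleted of ribosomal RNA. The authors deposited 1 table, the skipped-exon output of rMATS, per the file headers. STAR 2.7.3a and hg19 are named in the submitters' processing notes; the rMATS version, annotation and read filters are not given in the sources used here. The deposited p-value and FDR were used as they stand, and the FDR equalled a Benjamini-Hochberg adjustment over all 31408 events (largest gap 1.11e-16). The 6 columns with values per library carry only a set number, matched no label and were not used, so depth was not analysed here. The first-minus-second sign is the rMATS convention.

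Events were collapsed to exons by position; each exon is represented by its passing event of lowest p-value. Exons were matched to GENCODE 29 by gene identifier, exon length and both intron lengths, without coordinates, for 436 of the 484 exons. Every member gene with a passing exon is named, except 1 that is not reported here, as are the 5 exons nearest each limit and 5 listed genes in each direction. The members and lists were chosen with earlier results of these data known. Alternatives were FDR limits of 0.01 and 0.1, Bonferroni correction, minimum differences of 0 and 0.2, other units and gene sets. Current symbols were found for 145 of 147 genes. Calling and collapsing were tested on simulated data. The work was done in Python 3.11.15 with matplotlib 3.10.9, pandas 2.3.3, scipy 1.17.1 and numpy 2.4.6.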

Additional observations from a re-analysis of the deposited data

How the results depend on the processing

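The number of passing exons, 35 of 484, became 21 of 484 under an FDR limit of 0.01, beside 3.91% of all exons of the table. It became 4 of 484 under Bonferroni correction over the table, beside 1.68% of all exons of the table. Without the CCDC and TTC genes of no listed role it became 23 of 307. Each falls by construction, as a stricter limit or fewer exons. Under Bonferroni correction the number higher in the first set, 20, became 3. With the same correction the number of listed other genes with a passing exon, 27 of 110, became 8 of 110, beside 4.47% of all genes of the table. The 4 exons kept by Bonferroni correction included those of CEP63, AHI1 (163 nt) and CEP72, and CEP72 did not reach a minimum difference of 0.2. Under the remaining alternatives the count ran from 27 (minimum difference 0.2, beside 3.95% of all exons) to 41 (FDR under 0.1, beside 6.87%); it was 28 with 1 exon per gene and 38 with the rule applied to current gene symbols, an alternative chosen after seeing the data. Of the 7 other events of passing exons, none passed; 6 kept the direction and 1 reversed, in NPHP4, where the 156-nt exon went from -0.272 to 0.5. The share of member exons with a length divisible by 3 was 46% among fully coding exons. No paired analysis was possible because no column of the table names a clone or its number, and leaving out each library was not run because the columns with values per library were not used; how far 1 library decides a call was not examined.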

Other observations

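A difference of exactly -0.125 was listed for 4 of the 35 passing member events in the authors' deposited table, those of CEP72, CCDC25 and both forms of the CCDC144CP exon. An absolute difference of exactly 0.125 was listed for 12 of the 1619 passing events of the table, beside 2 at exactly 0.124 and 6 at exactly 0.126. They were chosen with their values in view.

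The symbol rule depends on the names in the table. Of the 147 genes, 12 have since been renamed, among them CCDC41 (now CEP83), CCDC104 (now CFAP36) and CCDC151 (now ODAD3), and 12 genes of the table match the rule only by their current symbol.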
